A study of Mus musculus with 12 samples.

Results

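The data describe 9 genes for proteins that hold synapses together, as they were expressed in oligodendrocyte precursor cells (OPCs) and in neurons of the mouse cortex. The genes were taken by name: the neurexins Nrxn2 and Nrxn3, the neuroligins Nlgn1, Nlgn2 and Nlgn3, the leucine-rich repeat transmembrane genes Lrrtm1 and Lrrtm2, and the synaptic cell adhesion genes Cadm1 and Cadm2. All 9 were found among the 30165 genes listed for OPCs and among the 17918 genes listed for neurons, and all 9 had a mean normalised count of at least 10 in both cell types. They were considered because OPCs and neurons touch each other, and these proteins are candidates for such contacts.

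The study deleted 2 L-type calcium channel genes, Cacna1c (Cav1.2) and Cacna1d (Cav1.3), in mice that carried floxed alleles of both and the inducible recombinase NG2-CreERT2. Double knockout (dKO) mice were compared with control (ctl) mice, whose genotype is labelled WT. Tamoxifen was given at 100 mg/kg on postnatal days 7 and 8. Each of the 12 libraries, 3 for each genotype and cell type, held cells sorted from the cortex of 2 pooled mice. The recombinase is driven by the promoter of NG2, a proteoglycan that OPCs and also pericytes carry, so neurons of dKO mice were not the cells in which the deletion was driven. Whether ctl mice carried floxed alleles or the recombinase, whether they received tamoxifen, and the age at sorting are not given in the sources used here. OPCs were sorted positively with beads against CD140, NG2 and O4, and neurons were what remained after astrocytes, endothelial cells, myeloid cells and O4-positive cells were removed.

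As background, neurexins are presynaptic receptors that reach across the synaptic cleft. Neuroligins and LRRTMs on the postsynaptic side bind them, neuroligin 1 mainly at excitatory and neuroligin 2 mainly at inhibitory synapses, while neuroligin 3 is found at both. LRRTM1 and LRRTM2 are partners of neurexins at excitatory synapses, and CADM proteins bind each other in pairs of like or related molecules. OPCs receive true synapses from neurons, and these adhesion genes are active in glia as well as in neurons.

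The neurexin and Cadm transcripts are cut and joined in many ways, and the neuron table lists transcripts one by one, so variable exons could be read for Cadm1 and Nrxn2. Among whole exons, the curated transcripts of these genes differ by 3 of Cadm1 and 1 of Nrxn2. All are coding, on the plus strand and a multiple of 3 bases long. They are shown because the shares given further on are shares of transcripts that hold or lack these exons. A share need not reflect the exon alone, since the transcripts may also differ elsewhere. The summed count per summed TPM, which grows with transcript length, was 64.2 for NM_001205234 of Nrxn2 and 57.6 for NM_001205235. For Cadm1 it was 42.1 for NM_001310841, which holds exon C, and 39.1 to 39.9 for the other curated transcripts. Coordinates are those of GENCODE M21 on GRCm38, and the sequences come from its transcripts. Exon A of Cadm1 lies at chr9:47818734-47818817 (84 bases), exon B at chr9:47829377-47829409 (33 bases) and exon C at chr9:47836717-47836770 (54 bases). The variable Nrxn2 exon lies at chr19:6463824-6463847 (24 bases). The variable exon is in capitals, with 30 bases of the spliced transcript on either side in lower case.
Cadm1 exon A, followed by exon B: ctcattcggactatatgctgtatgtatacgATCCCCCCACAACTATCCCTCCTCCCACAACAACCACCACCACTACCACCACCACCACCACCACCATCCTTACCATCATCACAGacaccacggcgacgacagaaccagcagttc
Cadm1 exon B, between constant exons: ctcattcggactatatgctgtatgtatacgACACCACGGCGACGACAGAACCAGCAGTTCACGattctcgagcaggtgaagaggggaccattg
Cadm1 exon C, preceded by exon B: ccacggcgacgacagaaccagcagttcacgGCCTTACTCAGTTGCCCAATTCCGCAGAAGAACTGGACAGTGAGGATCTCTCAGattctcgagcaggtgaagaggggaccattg
Nrxn2 variable exon: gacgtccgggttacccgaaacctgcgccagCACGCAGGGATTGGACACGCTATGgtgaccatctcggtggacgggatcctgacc

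The OPC table gives each gene's own position, for which the labels name the build mm39, so these positions cannot be set against those of the exons. Nrxn2 (ENSMUSG00000033768) is at chr19:6468761-6594199, Nrxn3 (ENSMUSG00000066392) at chr12:88689646-90301709, Nlgn1 (ENSMUSG00000063887) at chr3:25480379-26386609, Nlgn2 (ENSMUSG00000051790) at chr11:69713948-69728610 and Nlgn3 (ENSMUSG00000031302) at chrX:100342774-100369569. Lrrtm1 (ENSMUSG00000060780) is at chr6:77219672-77234774, Cadm1 (ENSMUSG00000032076) at chr9:47441471-47769413 and Cadm2 (ENSMUSG00000064115) at chr16:66452307-67417796. Lrrtm1 lies wholly inside Ctnna2, and Lrrtm2 (ENSMUSG00000071862) wholly inside Ctnna1, each on the opposite strand. The library kit does not mark strand, so reads of these genes and reads of the catenin genes around them cannot be told apart where they overlap, and the levels of both LRRTM genes are uncertain for that reason.

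Total counts were between 14935963 and 19812274 in the OPC libraries and between 15052901 and 16344585 in the neuron libraries. In OPCs Cacna1c was at 21.3, 23.5 and 25.1 CPM (counts-per-million values, scaled by TMM factors) in ctl and at 14.4, 19.3 and 17.9 in dKO, every dKO library below every ctl library, with a log2 fold change of -0.44 ± 0.15 (SE; edgeR, unadjusted p = 0.0179, adjusted p = 0.349). Cacna1d was at 14.4, 10.9 and 14.6 CPM in ctl and at 5.31, 8.77 and 13.3 in dKO, with overlapping groups. Its log2 fold change was -0.55 ± 0.31 (SE; edgeR, unadjusted p = 0.112, adjusted p = 0.531). The floxed sites flank only some exons of each gene, so counts over the whole gene do not measure how far the deletion went. Markers of other cell types were high in both sorts. In the OPC libraries 10 OPC markers summed to 1148 to 2540 CPM, while 10 markers of mature oligodendrocytes, such as Mbp, summed to 47581 to 82846 CPM. In the neuron libraries 12 neuron markers summed to 784 to 1727 CPM, and 10 endothelial markers, such as Cldn5, to 7645 to 17859.5 CPM. Fewer cells of a type and less RNA per cell cannot be told apart in such bulk samples.

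Per unit of gene length, in transcripts-per-million (TPM) made from the deposited FPKM values, the level of the 9 genes in OPC libraries spanned 42.5-fold. Nlgn2, the neuroligin of inhibitory synapses, had the highest level at 51.4 ± 7.39 TPM (SD over 6 libraries), followed by Cadm2 at 39.6 ± 4.30, Cadm1 at 35.2 ± 5.62, Nrxn2 at 35.1 ± 6.25 and Lrrtm2 at 24.1 ± 5.04 TPM. After a gap came Nlgn3 at 5.07 ± 1.20, Nlgn1 at 4.12 ± 0.692, Lrrtm1 at 2.19 ± 1.00 and Nrxn3 at 1.21 ± 0.247 TPM. The ranges of Lrrtm2 and Nlgn3 were the only ones of neighbours in this order that did not overlap. Cadm1 was above Nrxn2 in 4 of 6 libraries and Lrrtm1 above Nrxn3 in 5 of 6, and the other neighbours kept their order in 6 of 6 libraries. The upper 5 genes held the places from the 64.3rd to the 82.1st percentile of the genes tested, and Nrxn3 was at the 6.93rd.

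In the neuron libraries, on the deposited TPM scale, the order was another one and the span 55.3-fold. Cadm1 stood at 66.2 ± 12.2 TPM (SD over 6 libraries), which was 56.8% of the TPM of the 9 genes, and Nrxn3 followed at 25.0 ± 11.3 TPM. The next were Cadm2 at 8.12 ± 1.88, Lrrtm2 at 5.32 ± 1.00, Nlgn3 at 4.45 ± 1.49, Lrrtm1 at 2.33 ± 1.23, Nrxn2 at 2.27 ± 0.660, Nlgn2 at 1.71 ± 0.677 and Nlgn1 at 1.20 ± 0.378 TPM. Nrxn3 and Cadm2 were the only neighbours whose ranges did not overlap. Lrrtm2 was above Nlgn3, and Nlgn3 above Lrrtm1, in 5 of 6 libraries. Nlgn2 was above Nlgn1 in 4 of 6, so these neighbours did not differ beyond their spread. Lrrtm1 was above Nrxn2 in 2 of 6 libraries only, and their order differed by genotype. In every ctl library Nrxn2 was the higher, at 1.97 ± 0.277 against 1.33 ± 0.204 TPM. In dKO the ranges overlapped and Lrrtm1 had the higher mean, at 3.33 ± 0.868 against 2.57 ± 0.862 TPM (SD, n = 3 each). Per length, Nrxn3 was thus last of the 9 in OPCs and second in neurons, and Nlgn2 first in OPCs and eighth in neurons. The OPC places depend on the lengths used, 5785 bases for Nlgn2 and 11798 for Cadm1. In mean CPM, not divided by length, Nrxn2, Cadm1 and Cadm2 were above Nlgn2 in ctl OPCs, at 134, 109 and 104 against 79.4 CPM. They were also above it in dKO OPCs, and Lrrtm1 was below Nrxn3 in both genotypes. The tables of both cell types were counted against different gene models. In neurons the summed count per summed TPM was larger for NM_198862 of Nlgn2, at 49.4, than for NM_018770 of Cadm1, at 39.1. These orders therefore stand side by side, and no level was tested between cell types.

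**Figure D1:**
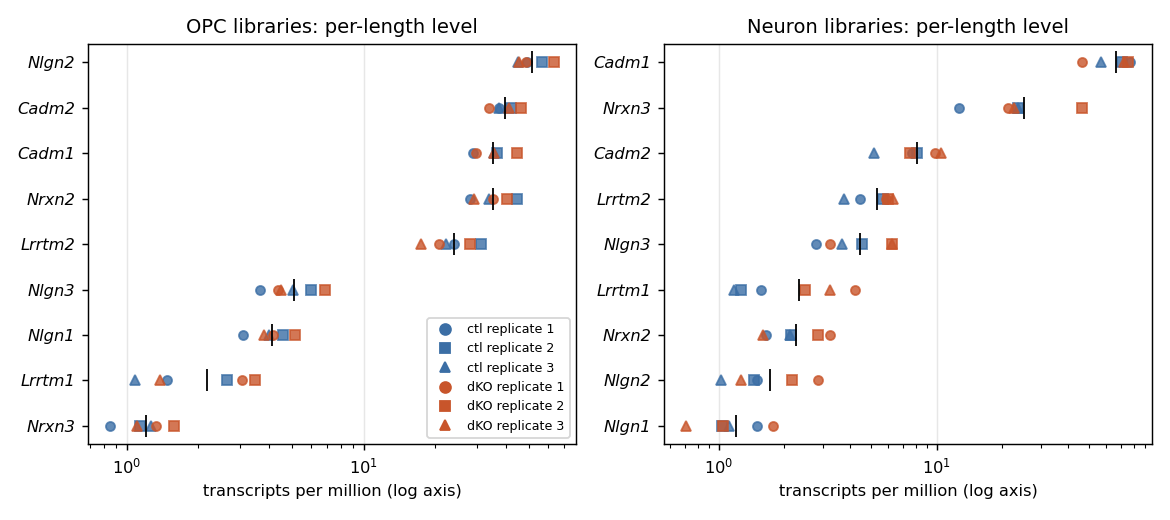
Level per gene length of the 9 adhesion genes in transcripts-per-million (log axis), in OPC libraries (left) and neuron libraries (right), ordered by the mean (black line); each symbol is 1 library, blue for ctl and orange for dKO. Nlgn2 led in OPCs with 51.4 TPM and Cadm1 in neurons with 66.2 TPM, and Nrxn3 stood last in OPCs and next to Cadm1 in neurons.

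Whether deletion of the channels altered these genes in the OPCs themselves was asked first. No gene of the 9 differed between dKO and ctl OPCs at an adjusted p under 0.05 or at an unadjusted p under 0.05 in edgeR, where 11.5% of the 17364 genes tested had an unadjusted p under 0.05 and 0.00576% an adjusted one. DESeq2 called none of the 9 either, with a smallest adjusted p of 0.648 for Lrrtm1, where it called 1.69% of all genes. In no gene of the 9 were the groups apart, against 17.0% of all genes. The log2 fold changes were above 0 for 8 of 9 genes, against 50.8% of all genes, with a median of 0.20 against 0.01 over all genes. This direction rested on 1 library: dKO replicate 2 was the highest of the 6 libraries for 9 of 9 genes, and without it 3 of 9 log2 fold changes were above 0, with a median of -0.02.

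Of the neurexins, Nrxn2 was at 108, 165 and 127 CPM in ctl OPCs and at 146, 169.8 and 107 CPM in dKO OPCs. The groups overlapped, with a log2 fold change of 0.08 ± 0.20 (SE, adjusted p = 0.910). Nrxn3 had few reads, 57 to 118 in a library. It was at 3.00, 3.88 and 4.36 CPM in ctl and at 5.09, 6.13 and 3.67 CPM in dKO. The dKO replicates 1 and 2 lay above all ctl libraries and dKO replicate 3 among them, with a log2 fold change of 0.41 ± 0.28 (SE, adjusted p = 0.594) that was 0.23 without dKO replicate 2 and 0.27 without ctl replicate 1.

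Among the neuroligins, Nlgn1 was at 11.6, 16.5 and 14.6 CPM in ctl OPCs and at 16.8, 21.0 and 13.4 CPM in dKO OPCs, and its log2 fold change was 0.27 ± 0.21 (SE), 0.09 without dKO replicate 2 and 0.13 without ctl replicate 1. Nlgn2 was at 79.2, 88.5 and 70.6 CPM in ctl and at 85.0, 112 and 69.1 CPM in dKO. Nlgn3, which is X-linked, was at 9.41, 15.1 and 12.7 CPM in ctl and at 12.1, 19.5 and 10.9 CPM in dKO. In all 3 neuroligins dKO replicate 2 lay above every other library, while dKO replicate 3 lay within or below the ctl range. The log2 fold changes of Nlgn2 and Nlgn3 were 0.16 ± 0.18 and 0.20 ± 0.26 (SE), and the adjusted p of the 3 genes was between 0.646 and 0.810.

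The LRRTM genes, the other postsynaptic partners of neurexins, had log2 fold changes of opposite sign, neither of which passed the test. Lrrtm1 was counted 15 to 62 times in a library. Its level was 1.25, 2.18 and 0.897 CPM in ctl OPCs and 2.80, 3.22 and 1.10 CPM in dKO OPCs, so dKO replicates 1 and 2 were above every ctl library and dKO replicate 3 was not. Its log2 fold change of 0.73 ± 0.49 (SE, unadjusted p = 0.172, adjusted p = 0.589) was the largest of the 9, and it moved with single libraries: it was 1.06 without dKO replicate 3 (unadjusted p = 0.0410), 1.14 without ctl replicate 2 (0.0720), 0.47 without ctl replicate 3 (0.409) and 0.45 without dKO replicate 2 (0.419). Lrrtm2 was at 40.4, 51.1 and 36.6 CPM in ctl and at 38.0, 51.6 and 27.7 CPM in dKO. It was the only one of the 9 with a log2 fold change below 0, at -0.13 ± 0.22 (SE, adjusted p = 0.865).

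The Cadm genes varied least between ctl libraries. Cadm1 was at 95.3, 117 and 114 CPM in ctl OPCs and at 106, 160.2 and 111 CPM in dKO OPCs. Cadm2 was at 102, 111 and 99.8 CPM in ctl and at 100.1, 138 and 106 CPM in dKO. For both genes dKO replicate 2 stood above the rest and the other 5 libraries lay together. Their log2 fold changes were 0.21 ± 0.17 and 0.14 ± 0.14 (SE), with adjusted p of 0.676 and 0.742.

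**Figure D2:**
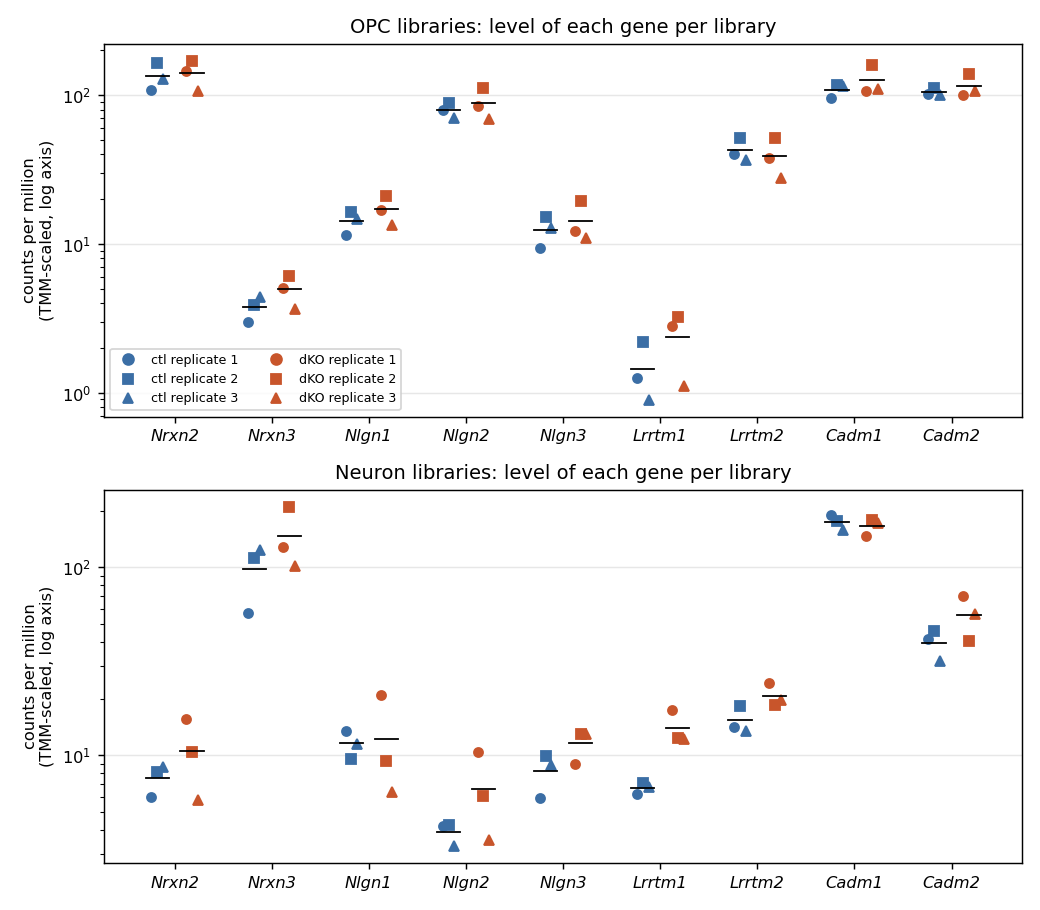
Level of each of the 9 genes in every library in TMM-scaled counts-per-million (CPM) (log axis), OPCs above and neurons below; symbols are libraries, blue for ctl and orange for dKO, and black lines are group means of 3 libraries. In OPCs the dKO replicate 2 square is highest for every gene, and in neurons Lrrtm1 and Lrrtm2 are the genes with all dKO libraries above all ctl libraries.

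The summed level of the 9 genes was 451, 570.2 and 482 CPM in ctl OPCs and 512, 682 and 449 CPM in dKO OPCs. The summed level of the 10 OPC markers was 1148, 1932 and 1439 CPM in ctl and 1635, 2540.1 and 1231 CPM in dKO. Both sums put the 6 libraries in nearly the same order. The correlation was r = 0.996 (exact permutation p = 0.00556, adjusted 0.0778) and rho = 0.943 (exact permutation p = 0.0167, adjusted 0.233), adjusted over the 14 relations computed with 7 marker lists in both cell types, and neither passed the adjustment. Without ctl replicate 2 and dKO replicate 2, the libraries farthest from the median of the markers, r was 0.983 over 4 libraries. Taken singly, the 9 genes had r between 0.804 and 0.982 with the OPC markers. With each genotype centred on its own mean, r was 0.996.

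The other marker lists gave both signs, and none of their p passed the adjustment over the 14 relations. With endothelial markers, which summed to 1008 to 2750 CPM in the OPC libraries, r was -0.795 (exact permutation p = 0.0278, adjusted 0.194) and rho -0.771 (exact permutation p = 0.103, adjusted 0.360), with a negative r for each of the 9 genes. Pearson's r was -0.554 without dKO replicates 2 and 3 and -0.982 with the genotypes centred. Mural cell markers gave r = -0.707, -0.862 without the 2 farthest libraries and -0.937 with the genotypes centred. With neuron markers, which summed to 200 to 318 CPM, r was 0.845 (exact permutation p = 0.0944, adjusted 0.369), and it was -0.281 without the 2 farthest libraries. Astrocyte markers gave r = 0.759, microglial markers -0.380 and oligodendrocyte markers 0.387, and with the genotypes centred these were 0.780, -0.899 and 0.456. Without the 2 farthest libraries they were 0.409, 0.529 and 0.403, so the microglial r changed sign without dKO replicates 1 and 3. Microglial markers summed to 249 to 299 CPM in ctl and 323 to 1008 CPM in dKO. Of these, 10 of 10 had an unadjusted p under 0.05 and were higher in dKO, against 6.27% of all genes. Astrocyte markers summed to 1197 to 2016 CPM in ctl and 1925 to 5627 CPM in dKO. Here 8 of 10 were higher in dKO at an unadjusted p under 0.05, against the same 6.27% of all genes. Of the oligodendrocyte markers 8 of 10 had a log2 fold change below 0, with a median of -0.42. Of these, 3 (Aspa, Mog and Opalin) had an unadjusted p under 0.05 and every dKO library below every ctl library. Over all genes, 5.27% were lower at such a p, and 17.0% had groups apart in either direction. Oligodendrocyte markers summed to 64559 to 75352 CPM in ctl and 47581 to 82846 CPM in dKO, so these sums overlapped. The part of these cells in the values of the 9 genes was not tested. With the summed OPC markers as a covariate, an alternative added after the data were seen, 6 of 9 log2 fold changes were above 0 with a median of 0.05, and Lrrtm2 had a log2 fold change of -0.33 and an unadjusted p of 0.0387.

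**Figure D3:**
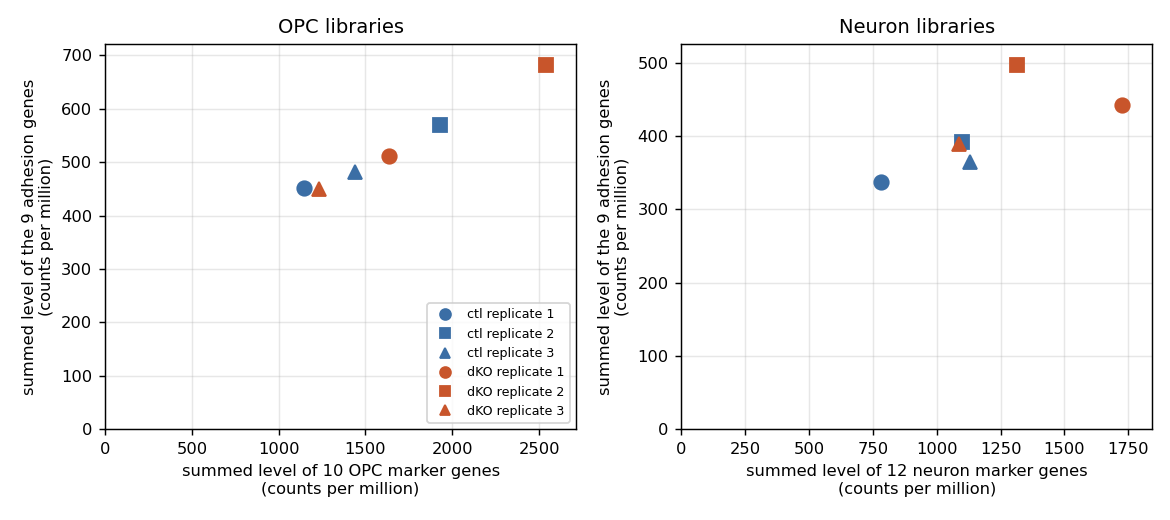
Summed level of the 9 adhesion genes against the summed level of OPC markers in OPC libraries (left) and of neuron markers in neuron libraries (right), both in counts-per-million; each symbol is 1 library, blue for ctl and orange for dKO. In OPCs the 6 libraries lie near a line (r = 0.996), with dKO replicate 2 at its upper end, and in neurons r was 0.710.

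In neurons the question was whether the loss of the channels in OPC-lineage cells went with other adhesion gene levels in the cells they contact. Of the 9 genes, 8 had a log2 fold change above 0, against 51.1% of the 14352 genes tested, and their median was 0.48 against 0.01 over all genes. The median was 0.29 without dKO replicate 1, and with the neuron markers as a covariate, an alternative added after the data were seen, it was 0.16, with 7 of 9 above 0. Other adhesion genes, listed further on, went the same way: 62 of 82 were above 0, with a median of 0.37. Lrrtm1 was the only one of the 9 at an unadjusted p under 0.05, where 9.0% of all genes stood, and 0 of the 9 and 0% of all genes were at an adjusted p under 0.05 in edgeR. In 2 of 9 genes, Lrrtm1 and Lrrtm2, every dKO library was above every ctl library, against 7.5% of all genes. DESeq2 called Lrrtm1 alone of the 9, where it called 0.614% of all genes. The 12 neuron markers had a median log2 fold change of 0.51 and sums of 784, 1101 and 1131 CPM in ctl and 1727, 1313 and 1088 CPM in dKO. Endothelial markers summed to 15295 to 17859.5 CPM in ctl and 7645 to 14029 CPM in dKO neurons, and 10 of 10 had a log2 fold change below 0, with a median of -0.39. Of these, 3 of 10 (Cldn5, Ly6c1 and Cdh5) had an unadjusted p under 0.05, and in 7 of 10 every dKO library was below every ctl library, against 7.82% of all genes. Oligodendrocyte markers summed to 505 to 3777 CPM in ctl and 1045 to 1717 CPM in dKO, with 10 of 10 below 0 and a median of -0.95. Microglial markers summed to 395 to 1767 CPM in ctl and 371 to 988 CPM in dKO, with 10 of 10 below 0 and a median of -0.67. Of these 20 oligodendrocyte and microglial markers none had an unadjusted p under 0.05 in edgeR or groups apart. Astrocyte markers were below 0 in 8 of 10 genes with a median of -0.39 and sums of 473 to 1184 CPM in ctl and 367 to 677 CPM in dKO, and 3 of 10 had an unadjusted p under 0.05 and groups apart, Gfap and Gja1 lower and Sox9 higher in dKO. OPC markers were below 0 in 7 of 10 genes, 1 at an unadjusted p under 0.05, with a median of -0.71 and sums of 169 to 259.5 CPM in ctl and 226 to 266 CPM in dKO. Mural cell markers were below 0 in 5 of 10, 1 of them at an unadjusted p under 0.05. That gene, Cspg4, is in both lists and is the same gene counted for the OPC markers. Apart from the neuron markers, whose covariate fit is given above, the part of these lists in the differences of the 9 genes was not tested.

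Lrrtm1, a partner of neurexins at excitatory synapses, was counted 96, 114 and 99 times in ctl neurons and 276, 205 and 186 times in dKO neurons. Its level was 6.24, 7.10 and 6.79 CPM in ctl and 17.3, 12.4 and 12.2 CPM in dKO. The ctl libraries lay close together and the lowest dKO library was well above the highest of them. The means were 6.71 ± 0.434 and 13.98 ± 2.89 CPM (SD, n = 3 each), 2.08-fold higher in dKO. The log2 fold change was 1.06 ± 0.25 (SE; edgeR, unadjusted p = 0.00244, adjusted p = 0.521), and DESeq2 gave an adjusted p of 0.0309. Leaving out any 1 library gave a log2 fold change between 0.87 and 1.15 with unadjusted p of at most 0.00924. With the neuron markers as a covariate, it was 0.78 with an unadjusted p of 0.0386. Ctnna2, the catenin gene around it, had a log2 fold change of 0.28 ± 0.27 (SE, adjusted p = 0.773). The Lrrtm1 count was spread over 6 transcripts, and the split changed from library to library. The predicted transcript XM_036152373 was estimated at 38.5, 43.3 and 0 counts in ctl and at 134, 107 and 43.3 in dKO, and XM_030255644 at 27.1, 47.7 and 77.2 in ctl and at 26.3, 52.6 and 82.2 in dKO. The curated transcript NM_001362109 was at 3.01, 0 and 21.8 counts in ctl and at 49.7, 16.5 and 60.5 in dKO, and NM_028880 at 11.9, 23.0 and 0 in ctl and at 66.4, 29.2 and 0 in dKO. In these estimated counts the genotypes overlapped or touched for each single transcript, though they were apart for the gene.

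Lrrtm2 was at 14.1, 18.4 and 13.5 CPM in ctl neurons and at 24.1, 18.4 and 19.7 CPM in dKO neurons. The groups were only just apart, with the lowest dKO library at 18.43 and the highest ctl library at 18.38 CPM. Its log2 fold change was 0.44 ± 0.21 (SE, unadjusted p = 0.0677, adjusted p = 0.567).

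The neurexins did not separate by genotype in neurons. Nrxn2 was at 5.98, 8.10 and 8.65 CPM in ctl and at 15.6, 10.4 and 5.77 CPM in dKO, so that the dKO libraries held both the highest and the lowest value. Nrxn3 was at 57.4, 112 and 123 CPM in ctl and at 127, 209 and 102 CPM in dKO. Its ctl replicate 1 was low and its dKO replicate 2 high, and the other 4 libraries lay close together. The log2 fold changes were 0.48 ± 0.38 for Nrxn2 and 0.58 ± 0.33 for Nrxn3 (SE), with adjusted p of 0.727 and 0.639. Nrxn2 was at 0.09 without dKO replicate 1 and at 0.78 without dKO replicate 3, and Nrxn3 at 0.23 without dKO replicate 2 and at 0.31 without ctl replicate 1.

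The groups of all 3 neuroligins overlapped in neurons. Nlgn1 was at 13.5, 9.59 and 11.5 CPM in ctl neurons and at 21.0, 9.28 and 6.36 CPM in dKO neurons, a log2 fold change of 0.08 ± 0.42 (SE) that was -0.56 without dKO replicate 1. Nlgn2 was at 4.23, 4.24 and 3.29 CPM in ctl and at 10.4, 6.06 and 3.54 CPM in dKO. The dKO replicate 1 library was highest for both genes, and for 6 of the 9 genes in all. Nlgn3 was at 5.92, 9.90 and 8.85 CPM in ctl and at 9.03, 12.9 and 13.0 CPM in dKO. The log2 fold changes of Nlgn2 and Nlgn3 were 0.76 ± 0.43 and 0.50 ± 0.29 (SE), with adjusted p of 0.627 and 0.642. Without dKO replicate 1 that of Nlgn2 was 0.29, and without ctl replicate 1 that of Nlgn3 was 0.31.

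Cadm1, which had the highest level per length of the 9 in neurons, had the log2 fold change closest to 0. It was at 189, 177 and 158 CPM in ctl and at 147, 179 and 171 CPM in dKO, with a log2 fold change of -0.07 ± 0.14 (SE, adjusted p = 0.903), the only one below 0. Cadm2 was at 41.8, 45.5 and 31.8 CPM in ctl and at 70.1, 40.3 and 56.2 CPM in dKO. The dKO replicates 1 and 3 were above all ctl libraries and dKO replicate 2 was among them, with a log2 fold change of 0.48 ± 0.23 (SE, unadjusted p = 0.0631, adjusted p = 0.562) that was 0.28 without dKO replicate 1.

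**Figure D4:**
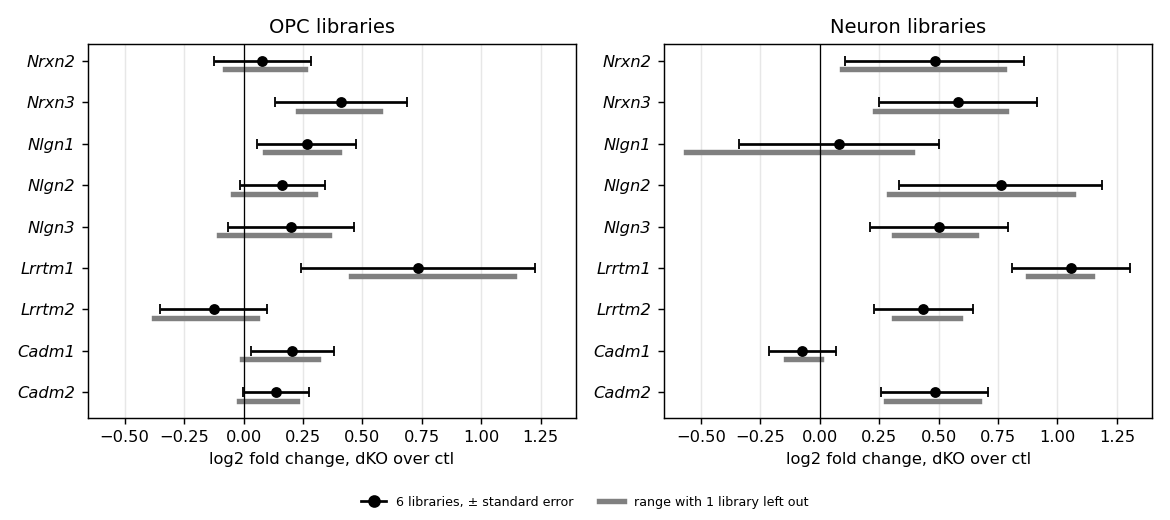
Log2 fold change of dKO over ctl for the 9 genes in OPCs (left) and neurons (right); points are edgeR estimates over 6 libraries with standard errors, and grey bars span the estimates with 1 library left out. Lrrtm1 in neurons has the largest estimate, 1.06, and its bar runs from 0.87 to 1.15, while the bars of 6 genes in OPCs and of Nlgn1 and Cadm1 in neurons cross 0.

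The dKO replicate 1 library of neurons stood apart from the other dKO libraries, with a chi-square per gene of 105 to 118 against them and of 23.0 between those. The summed level of the 9 genes in neurons had a correlation with the summed neuron markers of r = 0.710 (exact permutation p = 0.164, adjusted 0.379) and rho = 0.771 (exact permutation p = 0.103, adjusted 0.360) over 6 libraries. Without ctl replicate 1 and dKO replicate 1, r was 0.930 over 4 libraries, and with the genotypes centred it was 0.447. Taken singly, the 9 genes had r between -0.787 and 0.945 with the neuron markers, above 0 for 8 of 9. With endothelial, oligodendrocyte, astrocyte and microglial markers the r of the sum was -0.543, -0.545, -0.537 and -0.362. With OPC and mural cell markers it was 0.409 and 0.212, and none of these passed the adjustment.

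The neuron table gave 74 transcripts of the 9 genes, with 22 for Nlgn1, 20 for Nrxn3 and 1 each for Nlgn3 and Lrrtm2. Of these, 53 were listed at 0 in at least 1 library, so the split between transcripts was unsteady for most genes. The main Nlgn2 transcript, NM_198862, held 80.3% to 100% of the Nlgn2 count in 5 libraries and was listed at 0 in dKO replicate 2. Of the 48 transcripts tested, 1 had an unadjusted p under 0.05, against 4.6% of all 40070 transcripts tested, and 0 an adjusted p under 0.05. That transcript, XM_036157233 of Nrxn3, was estimated at 2.94, 0 and 0 counts in ctl and at 182, 0 and 213 in dKO.

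Cadm1 was the gene whose transcripts could be followed best. Its 5 curated transcripts held 97.1% to 99.0% of its count in every library. Exon A was in 68.0% to 85.8% of these transcripts (by TPM), exon B in 47.2% to 53.0% and exon C in 5.19% to 7.21%. By the means, and in all libraries but dKO replicate 1 (30.6% against 32.0% for exons A and B), the most common form had exon A alone, at 41.7% ± 2.51 in ctl and 39.7% ± 7.90 in dKO (SD, n = 3 each), and the form with exons A and B came next, at 31.1% ± 2.20 and 34.0% ± 2.04. The share of exon C was 5.91%, 7.21% and 5.93% in ctl and 5.35%, 5.39% and 5.19% in dKO, with no overlap between the groups. The exact permutation test gave a two-sided p of 0.1, the smallest possible here, and 0.2 after adjustment over the 4 exons. Exon C rests on 1 transcript with an estimated count of 131 to 215 in a library, which may differ from the others in more than this exon. The shares of exons A and B overlapped between genotypes, with dKO replicate 1 lowest for exon A and highest for exon B.

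For Nrxn2, the transcript with the variable exon, NM_001205234, held 66.4%, 82.8% and 61.1% of the Nrxn2 count in ctl neurons and 84.8%, 93.0% and 91.6% in dKO neurons. The dKO libraries were all above the ctl libraries, at 89.8% ± 4.42 against 70.1% ± 11.3 (SD, n = 3 each). The exact permutation test gave a two-sided p of 0.1, the smallest that 3 against 3 libraries allow, and 0.7 after adjustment over the 7 genes with several transcripts. Nrxn2 was counted only 88 to 249 times in a library, and the estimates carry no error of their own in the table. Its transcripts may also differ beyond the variable exon.

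**Figure D5:**
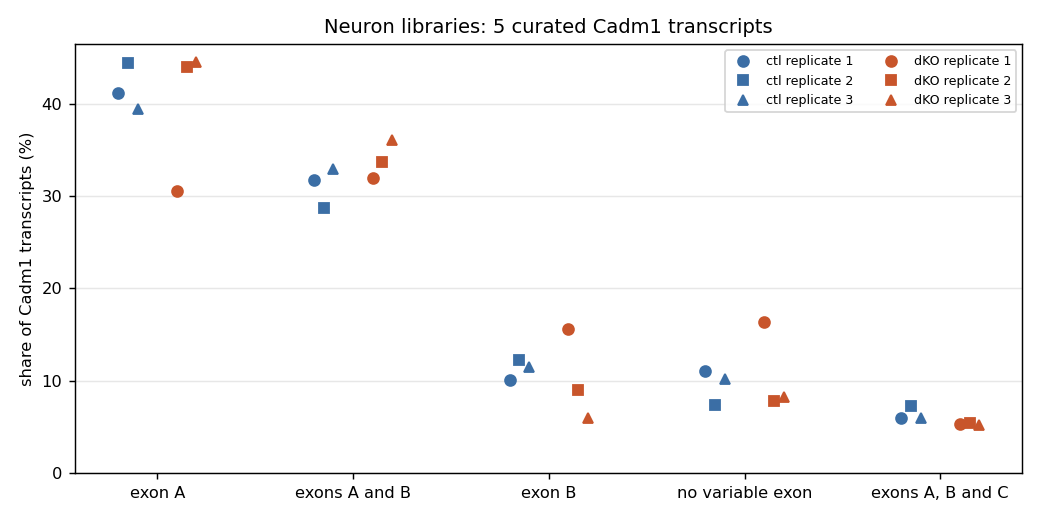
Share of each of the 5 curated Cadm1 transcripts in percent of their summed TPM in neuron libraries, by the variable exons each holds; each symbol is 1 library, blue for ctl and orange for dKO. The form with exon A alone and the form with exons A and B are the most common in every library, and the form with all 3 exons stays between 5.19% and 7.21%.

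Other adhesion genes were read from a list of 88 genes in 5 classes. In OPCs 83 of them were tested, and 54 had a log2 fold change above 0, against 50.8% of all genes. Their median was 0.13, against 0.01 over all genes. At an unadjusted p under 0.05, 8 were higher and 3 lower in dKO. That is 13.3% against 11.5% of all genes, of which 6.27% were higher and 5.27% lower. None had an adjusted p under 0.05 in edgeR, with 0.296 as the smallest. Among presynaptic organisers, Ptprd, a receptor phosphatase that organises presynaptic terminals, was lower in every dKO library than in any ctl library, at 1040.5 ± 205 and 712 ± 62.6 CPM, with a log2 fold change of -0.55 ± 0.18 (SE, unadjusted p = 0.0139). Ntng2 had a log2 fold change of -0.48, and Tenm2, which binds latrophilins, of 0.81. The homophilic adhesion gene Nectin1 had a log2 fold change of -0.63.

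The secreted modulators were the class with the largest median in OPCs, 0.44, against 0.01 over all genes. In this class 14 of 14 tested genes were above 0, against 50.8% of all genes, while in neurons 8 of 15 were, with a median of 0.04. In OPCs 2 of 14 (14.3%) had an unadjusted p under 0.05, against 11.5% of all genes. Their summed level was 1291, 1399 and 1781 CPM in ctl OPCs and 1829, 3590.2 and 2331 CPM in dKO OPCs, highest in dKO replicate 2, the library that was also highest for the 9 genes. Sparcl1 (hevin), which bridges neurexins and neuroligins, was at 684, 859 and 1114 CPM in ctl OPCs and at 1103, 2620.0 and 1426 CPM in dKO OPCs. Sparc, its antagonist, was at 439 ± 53.1 CPM in ctl and 658 ± 92.8 CPM in dKO (SD, n = 3 each), every dKO library above every ctl library, with a log2 fold change of 0.58 ± 0.16 (SE, unadjusted p = 0.006, adjusted p = 0.296). The log2 fold changes of the postsynaptic genes Slitrk2 and Ntrk3 were 1.09 and 0.65, that of the homophilic adhesion gene Nrcam 0.89 and that of the scaffold gene Lin7c 0.29. With 1 library left out, the highest unadjusted p was above 0.05 for Slitrk2, Ntrk3 and Nrcam without dKO replicate 2 (0.144, 0.150 and 0.158), for Lin7c and Nectin1 without ctl replicate 2 (0.0835 and 0.0533) and for Sparcl1 without ctl replicate 1 (0.0700). Without dKO replicate 2 the log2 fold changes of Slitrk2, Ntrk3, Nrcam and Sparcl1 were 0.53, 0.39, 0.38 and 0.51. In OPC libraries all astrocyte and microglial markers had log2 fold changes above 0. Of the oligodendrocyte markers 8 of 10 were below 0, 3 of them at an unadjusted p under 0.05, as given above. The part of these markers in the values of the adhesion genes was not tested.

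In neurons 82 of the 88 genes were tested, and 8 were higher and 2 lower in dKO at an unadjusted p under 0.05. That is 12.2% against 9.0% of all genes, of which 4.96% were higher and 4.04% lower. None passed adjustment in edgeR, with 0.521 as the smallest adjusted p. Slitrk1, a postsynaptic partner of receptor phosphatases, was at 3.05 ± 0.853 CPM in ctl and 7.96 ± 1.27 CPM in dKO (SD, n = 3 each), a log2 fold change of 1.38 ± 0.34 (SE). Lrrtm3, close kin of Lrrtm1, was at 6.12 ± 1.75 and 10.7 ± 2.25 CPM, and Flrt3, which binds latrophilins, at 16.8 ± 3.64 and 30.8 ± 7.12 CPM. The scaffold genes Magi2 and Homer1 had log2 fold changes of 1.24 and 0.61, and the presynaptic genes Tenm2, Igsf9 and Ptprs of 1.19, 0.85 and 0.55. The latrophilin Adgrl3 was lower, with -0.55, and so was Sparcl1, with -0.60. With 1 library left out, the highest unadjusted p was above 0.05 for Lrrtm3 and Ptprs without dKO replicate 2 (0.116 and 0.159), for Homer1 without dKO replicate 1 (0.121) and for Adgrl3 and Sparcl1 without ctl replicate 1 (0.0988 and 0.0781). The log2 fold changes of Homer1 and Sparcl1 were 0.40 and -0.38 without dKO replicate 1, and that of Ptprs was 0.34 without ctl replicate 1. With neuron markers as a covariate 2 of the 82 genes had an unadjusted p under 0.05. All endothelial, oligodendrocyte and microglial markers and 8 of 10 astrocyte markers had log2 fold changes below 0 in these libraries, 7 of 10 endothelial markers with the groups apart (7.82% of all genes in this direction), and their part in the values of the 82 genes, Sparcl1 included, was not tested.

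Over the 6 libraries of a cell type, the gene with the pattern most like that of each of the 9 was looked up by Pearson's r of log2 CPM. The highest r lay between 0.981 and 0.999 in OPCs. The closest pairs there were Lrrtm2 with Dll1, a Notch ligand, and Nlgn1 with Fxyd6, at 0.999 and 0.998, and Cadm1 went with AW047730 at 0.996. Nlgn2 went with Pnkd, Nrxn2 with Prex1, Nlgn3 with Sorcs3, Nrxn3 with Grid2ip, Cadm2 with Rtraf-ps and Lrrtm1 with Mocs2. In neurons the highest r lay between 0.987 and 0.998, as for Nrxn3 with Dcx, which marks young neurons, at 0.987 and Lrrtm1 with Syce2 at 0.998. The others were Nrxn2 with H3f3a, Nlgn1 with Nipal3, Nlgn2 with Arfip2, Nlgn3 with Tubgcp4, Lrrtm2 with Slc29a4, Cadm1 with Tns1 and Cadm2 with Slc16a8. These are the best of all genes tested over 6 points that share depth and cell content, and they are given as a description.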

How the data were processed

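For OPCs, the authors deposited raw counts per Ensembl gene and FPKM values. Their methods name HISAT2 alignment to GRCm38 and featureCounts, and the labels name mm39. For neurons, the authors deposited estimated counts and TPM per RefSeq transcript, and the program that made them is not given in the sources used here. Estimated counts were summed per Entrez gene and rounded, TPM values were summed per gene, and 17794 of 17918 gene identifiers were matched to symbols through RefSeq (GRCm38.p6). Neuron columns named cKO were taken as the samples titled dKO. The deposited FPKM values, proportional to scaled count over gene length, were rescaled to TPM. The deposited fold change and p-value columns of the authors' own comparisons were not used.

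Features whose TMM-normalized counts averaged 10 or more were tested between 3 dKO and 3 ctl libraries with edgeR 4.0.16 (R 4.3.3) quasi-likelihood tests and Benjamini-Hochberg adjustment at 0.05 over all features. Each standard error was derived from the fold change and its F statistic. Tests were checked on simulated data with log2 fold changes of 2: 190 of 190 changed genes were called in OPCs, 197 of 197 in neurons and 182 of 189 transcripts, with 13, 16 and 11 unchanged features called. DESeq2 1.42.0, its size factors, no count filter, each library left out and a replicate block were alternatives. No library was a copy of another: the lowest chi-square per gene between replicates was 15.9. Nothing says that replicates were processed independently beyond the pooled mice, so p-values measure the spread between these libraries.

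The 9 genes, the other adhesion genes and the marker lists were chosen with earlier results of these data known. Named were the 9 genes, the targeted genes, other adhesion genes at an unadjusted p under 0.05 (at most 12 in a cell type), and for each of the 9 the gene most alike. Of the genes this rule names, 1 is not reported here.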

Additional observations from a re-analysis of the deposited data

How the results depend on the processing

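The 9 genes kept their direction and their side of the adjusted threshold in 83 of their alternative values with all libraries included, and Lrrtm1 in neurons passed the threshold with DESeq2 (log2 fold change 1.05). With the marker covariate, added after seeing the data, the log2 fold changes of Nrxn2 (-0.079) and Nlgn3 (-0.021) in OPCs and of Nrxn2 (-0.31), Nlgn1 (-0.61) and Cadm1 (0.085) in neurons changed sign, and with the replicate block that of Nlgn1 in neurons (-0.078). With 1 library left out, sign changes occurred in OPCs for Cadm1 (-0.0073 to 0.31), Cadm2 (-0.017 to 0.22), Lrrtm2 (-0.38 to 0.057), Nlgn2 (-0.043 to 0.30), Nlgn3 (-0.10 to 0.36) and Nrxn2 (-0.076 to 0.26), and in neurons for Cadm1 (-0.14 to 0.0051) and Nlgn1 (-0.56 to 0.39).

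OPC genes at an adjusted p under 0.05 numbered 1 by edgeR, the gene 1520401A03Rik, 87 without the count filter, 293 by DESeq2, 27 with the replicate block and 259 with OPC markers as a covariate, and 1 to 199 with 1 library left out, the highest without dKO replicate 2. At an unadjusted p under 0.05 they numbered 2003, 3034 with the covariate and 1106 to 2292 with 1 library left out, the lowest without ctl replicate 2. Of the 9 genes, 0 were at an unadjusted p under 0.05 in OPCs, 1 with the covariate and 0 to 1 with 1 library left out. Other adhesion genes numbered 11, 18 without the filter, 25 with the covariate and 7 to 16 with 1 library left out, the lowest without ctl replicate 3. In neurons genes at an adjusted p under 0.05 numbered 0 by edgeR, beside 1292 at an unadjusted p under 0.05, and 88 by DESeq2. The 1292 became 369 with neuron markers as a covariate and 780 to 1581 with 1 library left out, the lowest without ctl replicate 1. Of the 9 genes, 1 to 3 were at an unadjusted p under 0.05 with 1 library left out: Nrxn2 and Nlgn2 joined Lrrtm1 without dKO replicate 3, Lrrtm2 without ctl replicate 2 and Cadm2 without dKO replicate 2. Other adhesion genes numbered 10, 2 with the covariate and 8 to 11 with 1 library left out, and transcripts of the 9 genes 1 and 0 to 2. The causes were not tested.

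Same-numbered ctl and dKO libraries had correlations of deviations between -0.13 and 0.18 in OPCs and between -0.06 and 0.17 in neurons, and not every library correlated best with its own number, so the numbers do not pair the libraries. The replicate block changed no call among the 9 genes. Lrrtm1 and Nrxn3 in OPCs and most single transcripts in neurons rest on few counts.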
